A study of Canis lupus familiaris with 33 samples.

Results

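The comparison set the oligodendrogliomas of Boxers against those of French Bulldogs, all kept as formalin-fixed paraffin-embedded (FFPE) blocks. Libraries were chosen by preservation, tissue and the stated breed, which gave 10 of the 33 libraries of the series, 4 from Boxers and 6 from French Bulldogs, each from a different dog. The tumour of another breed was left out. All 4 Boxer tumours (dogs 43917, 50416, 60461 and 60792) were graded III. Ages of 10.3, 7 and 12 years were stated for dogs 43917, 50416 and 60792, and for dog 60461 an age of 8.8 years was given with its frozen tumour only. Of the 6 French Bulldog tumours, those of dogs 44331, 60177, 60636 and 60749 were graded III and those of dogs 51234 and 60679 were graded II. The stated ages of the French Bulldogs were 7.9, 8.3, 5.3, 4.7 and 8.2 years, with none stated for dog 60749. FFPE brain described as healthy, from 4 other Boxers and 5 other French Bulldogs, gave the breed difference outside the tumour. Control ages were stated as 2 years for Boxer 50315 and as 4, 6.9 and 8 years for French Bulldogs 47198, 60460 and 60462, with none for the other 5 dogs. Frozen tumour libraries existed for Boxer 60461 and French Bulldogs 60636, 60679 and 60749. Frozen tumours and frozen control brains of dogs outside the 10, mostly of other breeds, served as a reference, as set out further on. The brains were sampled at necropsy at varying times after death, and sex was not among the labels used here. Grade, age and breed were not balanced, so their parts in any difference cannot be told apart beyond the restricted fits given below.

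Oligodendroglioma is a diffuse glioma whose cells resemble oligodendrocytes and their precursors, the cells that make myelin. Boxers and French Bulldogs are short-skulled (brachycephalic) breeds that are over-represented among dogs with glioma, and gains of chromosome 13, which carries PDGFRA, KIT and MYC, have been described in canine glioma. The breeds also differ by fixed or nearly fixed variants for coat, skull, limb and tail shape. The study's own question was whether FFPE tissue can serve the search for tumour antigens, and the labels give breed only as a description of each dog. The deposited table names genes by Ensembl identifier alone, so genes are given by chromosome and position on CanFam3.1. Whether reads of both breeds map equally well to this assembly was not tested, for any breed difference given here. Cell type markers could not be checked, so the labelled tissue was examined only through genes that differed between frozen tumour and frozen brain, as set out further on.

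Total assigned counts ran from 1752162 to 6714065 in Boxer tumours and from 3835499 to 9714479 in French Bulldog tumours. No pair of libraries within a breed looked like 1 library deposited again: a chi-square test of their counts gave 26.01 to 268 per degree of freedom. Nothing in the labels gives a batch or date.

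No gene passed the test between the breeds. With edgeR's quasi-likelihood test and Benjamini-Hochberg adjustment, 0 of 13873 genes (0%) reached an adjusted p under 0.05, and the smallest adjusted p was 1.00 after rounding (smallest unadjusted p = 5.55e-04). At an unadjusted p under 0.05 there were 283 genes (2.04%), 196 of them with higher values in Boxers (1.41%) and 87 with lower values (0.627%). limma voom with quality weights also gave 0 calls and 426 genes under that unadjusted threshold. DESeq2 called 1 gene of 25958 (0.00385%) and had 756 under the unadjusted threshold (2.91%). Because the tissue is bulk, fewer cells of a type and less RNA per cell cannot be told apart in any value given here.

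The spread between dogs of 1 breed was wide. The median within-breed standard deviation of a gene was 0.73 log2 CPM (counts scaled to library size) in Boxers and 0.62 in French Bulldogs. The median standard error of the Boxer over French Bulldog log2 fold change was 0.46, with quartiles of 0.36 and 0.61. The median absolute log2 fold change was 0.27, and 850 genes differed by 1 or more on that scale, 559 with higher and 291 with lower values in Boxers. Breed took up a mean of 7.68% of the variance of a gene over the 10 tumours, beside 11.1% for 1 of 9 degrees of freedom. In 30 genes (0.216%) the breeds did not overlap, with all Boxers above all French Bulldogs in 9 (0.0649%) and below them in 21 (0.151%).

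The 4 genes described first had the smallest unadjusted p in each direction, a choice made after their values were seen. ENSCAFG00000042176 is a gene of 2 exons on the minus strand of chromosome 1 (103746094 to 103748578) that overlaps 2 other annotated genes. It had 51.6, 30.9, 18.9 and 64.8 CPM in Boxer tumours, against 7.75, 19.001, 12.5, 12.5, 13.2 and 8.10 CPM in French Bulldog tumours. Boxer 60461 was the lowest of its breed and just under French Bulldog 51234, the highest of the other, so the breeds touched by 1 pair. The log2 fold change was 1.77 ± 0.39 (SE; 95% interval 0.87 to 2.67; edgeR adjusted p = 1.00). In control brain the same gene had 28.6, 27.8, 57.002 and 44.4 CPM in Boxers, against 16.3, 31.99, 22.3, 8.10 and 14.9 CPM in French Bulldogs, a log2 fold change of 1.03 ± 0.42 (edgeR unadjusted p = 0.0259, adjusted p = 1.00). The frozen tumour of Boxer 60461 had 52.6 CPM, against 7.27, 9.02 and 9.39 CPM in the frozen tumours of the 3 French Bulldogs.

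ENSCAFG00000037735 has 6 exons on the plus strand of chromosome X (9363162 to 9537788) and overlaps 1 other annotated gene. It had 192, 70.8, 145 and 115.8 CPM in Boxer tumours, against 37.4, 48.3, 46.8, 84.6, 41.3 and 34.97 CPM in French Bulldog tumours. French Bulldog 60636 alone lay within the Boxer range. The log2 fold change was 1.42 ± 0.34 (SE; 95% interval 0.63 to 2.21; edgeR adjusted p = 1.00). In control brain it had 60.2, 82.4, 72.8 and 16.97 CPM in Boxers, against 45.6, 39.1, 27.1, 29.5 and 16.4 CPM in French Bulldogs (log2 fold change 0.85 ± 0.44, edgeR unadjusted p = 0.0717). Boxer 61478 stood below 4 of the 5 French Bulldog control brains. The frozen tumour of Boxer 60461 had 324 CPM, against 47.7, 22.9 and 30.96 CPM in those of French Bulldogs 60636, 60679 and 60749. French Bulldog 60636 was the highest of its breed in both its FFPE and its frozen library.

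Of the genes lower in Boxers, 1 was too low in control brain to be tested there. ENSCAFG00000013929, with 7 exons on the minus strand of chromosome 7 (20738161 to 20750635), had 3.48, 3.01, 4.54 and 5.55 CPM in Boxer tumours, against 13.6, 7.46, 14.2, 13.49, 8.67 and 31.005 CPM in French Bulldog tumours. The breeds did not overlap, and French Bulldog 60749 was highest by far. The log2 fold change was -1.82 ± 0.48 (SE; 95% interval -2.93 to -0.70; edgeR adjusted p = 1.00). In control brain the gene was under the filter on low counts, with 21, 6, 1 and 8 counts in Boxers and 12, 17, 12, 28 and 4 counts in French Bulldogs. Its frozen tumour values were 12.7 CPM in Boxer 60461, against 14.9, 23.6 and 43.5 CPM in the 3 French Bulldogs.

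ENSCAFG00000009988, with 2 exons and an exonic length of 237 bp on the minus strand of chromosome 14 (6522149 to 6522598), overlaps 1 other annotated gene. It had 30.7, 16.6, 14.7 and 22.2 CPM in Boxer tumours, against 34.3, 89.95, 49.4, 74.0, 106 and 28.2 CPM in French Bulldog tumours, where only dog 60749 lay under the highest Boxer. The log2 fold change was -1.60 ± 0.43 (SE; 95% interval -2.60 to -0.61; edgeR adjusted p = 1.00). In control brain the breeds stood at 27.1, 21.9, 22.2 and 17.8 CPM in Boxers, against 22.5, 22.8, 21.8, 26.3 and 22.7 CPM in French Bulldogs (log2 fold change -0.06 ± 0.32). The breed difference in tumour minus that in control brain was -1.58 ± 0.51 (edgeR unadjusted p = 0.00520, adjusted p = 1.00). The frozen tumours had 8.37 CPM in Boxer 60461, against 19.3, 27.4 and 13.99 CPM in the 3 French Bulldogs.

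**Figure D1:**
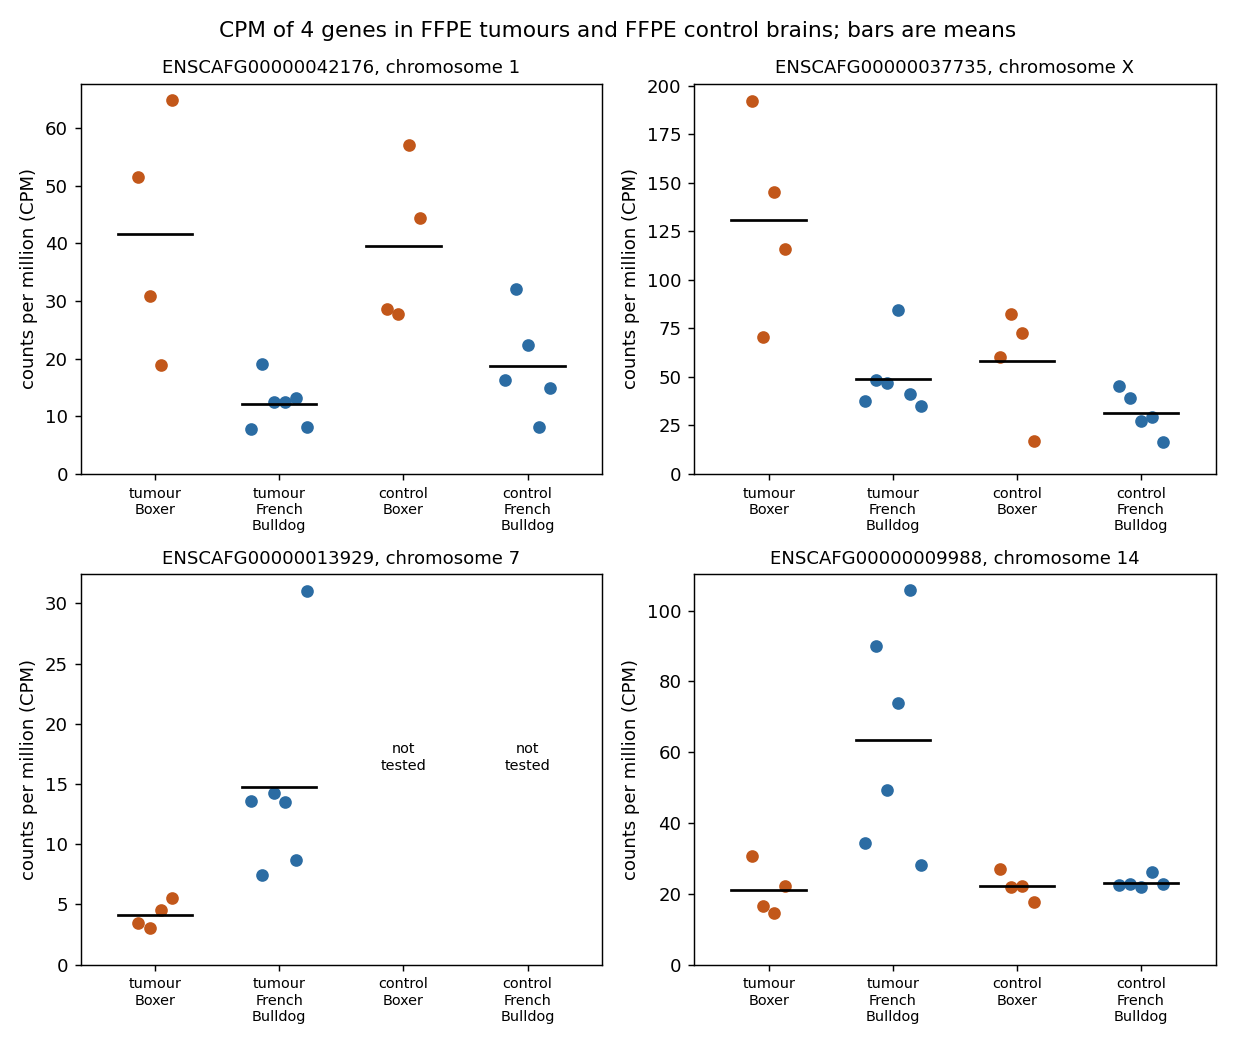
CPM on a linear axis from 0 for the 4 genes in FFPE tumours and FFPE control brains of Boxers (orange) and French Bulldogs (blue). Each point is a dog and each bar a group mean. The breeds are apart in tumour for the chromosome 7 gene, touch for the chromosome 1 gene, and the chromosome 14 gene lies between 17.8 and 27.1 CPM in control brains; the chromosome 7 gene was not tested in control brain.

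DESeq2, which tested genes of lower counts, called a gene of 6 exons on the minus strand of chromosome 32 (7065046 to 7091689) that the edgeR filter had removed. The gene overlaps 1 other annotated gene. It had 23, 3, 8 and 5 counts in Boxer tumours, against 1, 0, 0, 0, 0 and 0 counts in French Bulldog tumours. DESeq2 gave a log2 fold change of 6.42 ± 1.28 (SE) and an adjusted p of 0.0130. An edgeR fit without the filter gave 6.07 ± 1.16 for the same gene, with an adjusted p of 0.392. These fitted values depend on how near-zero counts are treated and are not bounds on the difference. The frozen tumour of Boxer 60461 had 48 counts, against 1, 0 and 0 in French Bulldogs 60636, 60679 and 60749. In control brain the counts were 0, 0, 0 and 1 in Boxers and 0, 8, 0, 0 and 3 in French Bulldogs, so the order of the breeds in tumour was not seen there. The DESeq2 call was lost without Boxer 43917 (adjusted p = 1.00), French Bulldog 60636 (0.0570) or French Bulldog 60749 (0.176), and adjusted p ran from 0.00300 to 1.00 over the 10 fits that each left out 1 dog. Without Boxer 60461 DESeq2 called 39 genes, where edgeR called 0 and had 629 at an unadjusted p under 0.05.

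Breed can act on brain expression whether or not a tumour is present, so the same contrast was read in the control brains. There 0 of 12975 genes (0%) passed in edgeR, 424 (3.27%) had an unadjusted p under 0.05, 252 of them higher (1.94%) and 172 lower (1.33%) in Boxers, and DESeq2 called 4. Without French Bulldog 60460 or without French Bulldog 60462 edgeR called 1 gene. Of 12593 genes tested in both tissues, 241 were at an unadjusted p under 0.05 in tumour and 403 in control brain, and 16 were on both lists, 6.64% of the tumour list and 3.97% of the control list. Of these 16, 13 pointed the same way, 12 with higher values in Boxers and 1 with lower values, and 3 pointed opposite ways. Over the whole tumour list, 150 of 241 genes pointed the same way in control brain. That share over all 12593 genes was not computed. Neither this count nor the 13 of 16 is therefore read as particular to these genes. Over the 12593 genes the tumour and control log2 fold changes correlated weakly (Pearson 0.20, Spearman 0.18), a description across genes that are not independent. The tumour and control dogs were different animals.

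Of the 16 genes only 1 kept the breeds apart in both tissues, a gene of 10 exons on the plus strand of chromosome 16 (52314535 to 52324894). It had 38.2, 36.9, 31.2 and 33.97 CPM in Boxer tumours, against 17.6, 25.3, 22.1, 22.5, 17.1 and 19.6 CPM in French Bulldog tumours. In control brain it had 26.6, 28.1, 19.001 and 33.7 CPM in Boxers, against 13.02, 9.24, 7.28, 15.2 and 14.2 CPM in French Bulldogs. The 19.001 CPM of Boxer 50315 rested on 6 counts in a library of 406406, so the gap in control brain is uncertain. The log2 fold change was 0.76 ± 0.26 in tumour and 1.22 ± 0.37 in control brain (edgeR adjusted p = 1.00 in each). Frozen tumours overlapped, with 27.7 CPM in Boxer 60461, against 20.2, 20.1 and 27.8 CPM in French Bulldogs 60636, 60679 and 60749.

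The 1 gene lower in Boxers in both tissues has 28 exons on the plus strand of chromosome 32 (23942954 to 24040703). It had 36.5, 25.99, 26.2 and 18.7 CPM in Boxer tumours, against 47.9, 46.2, 35.7, 68.5, 50.8 and 34.6 CPM in French Bulldog tumours. The breeds overlapped through Boxer 43917, which lay above French Bulldogs 60177 and 60749. In control brain it had 25.3, 17.7, 12.7 and 22.2 CPM in Boxers, against 26.7, 31.3, 28.9, 40.7 and 91.0 CPM in French Bulldogs, with no overlap. The 12.7 CPM of Boxer 50315 rested on 4 counts. The log2 fold change was -0.82 ± 0.31 in tumour and -1.10 ± 0.42 in control brain (edgeR adjusted p = 1.00 in each).

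In further genes of the 16, 1 or 2 libraries stood far above the rest. The 2 given first were chosen after their values were seen. A gene of 5 exons on chromosome X (41201638 to 41205310) had 482 CPM in Boxer tumour 43917 and 24.7 to 43.3 CPM in the other 3 Boxer tumours, against 8.46 to 111 CPM in French Bulldog tumours. In control brain the library of Boxer 50315, with a total of 406406 counts, had 2606 CPM of it, while the other Boxers had 24.1 to 68.3 CPM. A gene of 23 exons on chromosome 4 (57742651 to 57823740) had the opposite order in the tissues, with log2 fold changes of 2.37 ± 1.08 in tumour and -6.49 ± 1.80 in control brain. It had 0.377 to 18.6 CPM in Boxer tumours, against 0 to 3.30 CPM in French Bulldog tumours, and 1163 and 928 CPM in control brains of French Bulldogs 45726 and 60462. Boxer control 50315 stood highest for more of the 16. It had 1343 CPM of a gene on chromosome 12 (6211867 to 6217933), against 55.3 to 92.0 CPM in the other Boxer controls. For a gene on chromosome 37 (25933455 to 25940985) it had 415 CPM, against 12.5 to 50.9 CPM in the others. It was the lowest Boxer control for the genes on chromosomes 16 and 32 given above. Its part in the agreement between the tissues was not tested.

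When the breed contrasts of tumour and control brain were averaged in 1 edgeR fit of all 19 libraries, 0 of 14760 genes (0%) passed and 664 (4.50%) had an unadjusted p under 0.05, 2.75% with higher and 1.75% with lower values in Boxers. The test of whether the breed difference itself differed between tumour and control brain found 0 of 14760 genes (0%) and 289 (1.96%) under the unadjusted threshold, and DESeq2 called 0 there as well.

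Regions where the breeds are known to differ in sequence, or that have been tied to glioma, were read as fixed segments. They were placed on CanFam3.1 from general knowledge, since the table names no gene, and each segment holds neighbours as well. The major histocompatibility complex, which encodes antigen-presenting molecules, lies in the first 4 Mb of chromosome 12. Of 107 genes tested there, 0 passed, and 2 were higher and 0 lower at an unadjusted p under 0.05, a share of 1.87% beside 2.04% over all genes. One of them, with 5 exons at 3533102 to 3538533, had 35.02 to 120 CPM in Boxer tumours and 25.2 to 51.5 CPM in French Bulldog tumours (log2 fold change 0.96 ± 0.37). A segment of chromosome 26 from 5 to 9 Mb, associated with glioma risk in short-skulled breeds, had 62 genes tested and 0 at an unadjusted p under 0.05, with a median log2 fold change of 0.07.

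The segment of chromosome 13 from 46 to 48 Mb holds PDGFRA, KIT and KDR, which encode receptor tyrosine kinases of glial precursors, stem cells and vessels. Of its 14 tested genes 0 passed and 0 were at an unadjusted p under 0.05. Among the 14, 13 had a log2 fold change above 0, beside 6908 of 13873 over all genes. The median was 0.19, beside 0.00 over all genes, and the shift of the whole of chromosome 13 also differed by 0.19 between the breeds. The largest log2 fold change in the segment was 1.83 and the smallest unadjusted p in edgeR was 0.0517. In control brain the median was 0.29 over 12 genes. The segments around MYC (chromosome 13), IGF1R (chromosome 3), IGF1 (chromosome 15), SMOC2 (chromosome 1), MITF (chromosome 20) and BMP3 (chromosome 32) had 2 to 10 genes tested each and 0 at an unadjusted p under 0.05.

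The chromosome 5 segment from 31 to 33 Mb contains DVL2, a component of WNT signalling with a truncating variant tied to the screw tail of bulldog breeds. It had 79 genes tested, 2 with higher and 0 with lower values in Boxers at an unadjusted p under 0.05, a share of 2.53% that is near the 2.04% over all genes. The first, a gene of 4 exons at 32040328 to 32042291, had 63.0 to 211 CPM in Boxer tumours and 17.8 to 88.5 CPM in French Bulldog tumours (log2 fold change 1.32 ± 0.42; 0.82 ± 0.52 in control brain). The second, with 18 exons at 32574134 to 32594333, had 66.7 to 346 CPM in Boxer tumours and 40.6 to 99.8 CPM in French Bulldog tumours (log2 fold change 1.15 ± 0.46; 1.06 ± 0.61 in control brain).

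A retrogene copy of FGF4, a fibroblast growth factor, on chromosome 12 is tied to short limbs and disc disease in several breeds, French Bulldogs among them. The segment around the insertion, from 33 to 35 Mb, had 6 genes tested and 0 at an unadjusted p under 0.05. Reads of a retrogene that is missing from the assembly would be placed at the parent gene on chromosome 18. The segment from 48 to 49 Mb had 4 genes tested, 0 with higher and 1 with lower values in Boxers at an unadjusted p under 0.05, a gene at 48957249 to 48984564 (log2 fold change -0.99 ± 0.41). In the same segment a gene of 3 exons at 48413187 to 48416977 had 0, 0, 0 and 6 counts in Boxer tumours, against 6, 13, 4, 10, 1 and 49 counts in French Bulldog tumours. Frozen tumours had 0 counts in Boxer 60461 among 24458306, where a count of 0 allows up to 0.123 CPM, against 44, 20 and 100 counts in French Bulldogs 60636, 60679 and 60749. Control brains had 3, 6, 2 and 0 counts in Boxers, against 2, 8, 12, 4 and 7 counts in French Bulldogs. The gene lay under the main filter, and an edgeR fit without a filter gave a log2 fold change of -2.08 ± 1.12 in tumour (unadjusted p = 0.0747, adjusted p = 0.857) and -0.40 ± 1.22 in control brain. Whether this gene is FGF4 was not established, since the table pairs no name with it. It was looked at because of its place, and its counts had been seen when it was set out here.

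Short single-exon features leaned towards higher values in Boxer tumours, though none passed the test. They are those of at most 300 bp in 1 exon, mitochondrial genes aside, and include small non-coding RNAs. Of 509 tested, 0 passed, and 61 had higher and 7 lower values in Boxer tumours at an unadjusted p under 0.05, a share of 13.4% beside 2.04% over all genes. The median log2 fold change was 0.69, and 404 of 509 were above 0. These features were read in the same few libraries and are not independent, so their number does not replicate the breed difference. In control brain 5 of 395 had higher and 7 lower values in Boxers, with a median of -0.12. Genes of 2 or more exons gave 126 with higher and 72 with lower values among 12852, a share of 1.54%, with a median of -0.01. On chromosome X 9 of 523 genes had higher and 6 lower values in Boxers (2.87%), and of 36 mitochondrial genes 2 had higher and 0 lower values, with a median of 0.35. The 15 mitochondrial genes of 200 bp or longer had the opposite sign, with a median of -0.24 and 3 of 15 above 0.

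Their share of all counts was not shown to differ between the breeds. It was 2.59%, 2.79%, 1.07% and 3.96% in Boxers 43917, 50416, 60461 and 60792, and 1.67% to 3.21% in French Bulldogs, with means of 2.60 ± 1.19% (SD, n = 4) and 2.29 ± 0.53% (SD, n = 6; two-sided exact permutation over 210 splits, p = 0.576, adjusted p = 0.762). Boxers held both the highest and the lowest share. With that share as a covariate the class median was 0.29, in a fit that adjusts these features for their own summed counts. With limma voom the class median was 0.39. In the 9 dogs with an age it was 0.31 with age as a covariate and 0.54 without it. With the ages of the FFPE records alone the class median was 0.83 with age as a covariate and 0.95 without it. Among grade III tumours it was 0.94. The fit with the short-feature share had 0 calls, and 165 genes were at an unadjusted p under 0.05.

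The other library measures overlapped between the breeds as well. Of 8 measures tested by exact permutation, 0 passed, and adjusted p ran from 0.648 to 0.919, where 210 splits allow a smallest p of 0.00476. Total counts averaged 3723786 ± 2114459 in Boxers and 5604154 ± 2131902 in French Bulldogs (exact permutation p = 0.214). The mitochondrial share was 19.7 ± 8.26% in Boxers and 23.3 ± 7.94% in French Bulldogs (exact permutation p = 0.481). The share of counts on unplaced scaffolds was 17.6%, 4.69%, 1.30% and 12.6% in Boxers 43917, 50416, 60461 and 60792, and 1.40% to 12.4% in French Bulldogs (exact permutation p = 0.243). It was 1.30% to 1.47% in the dogs with a frozen library and 2.59% or more in the others. One single-exon feature of 1869 bp held 15.2% of the counts of Boxer 43917 and 0.0655% of those of French Bulldog 60749. Its part in the gene-level values was not tested.

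**Figure D2:**
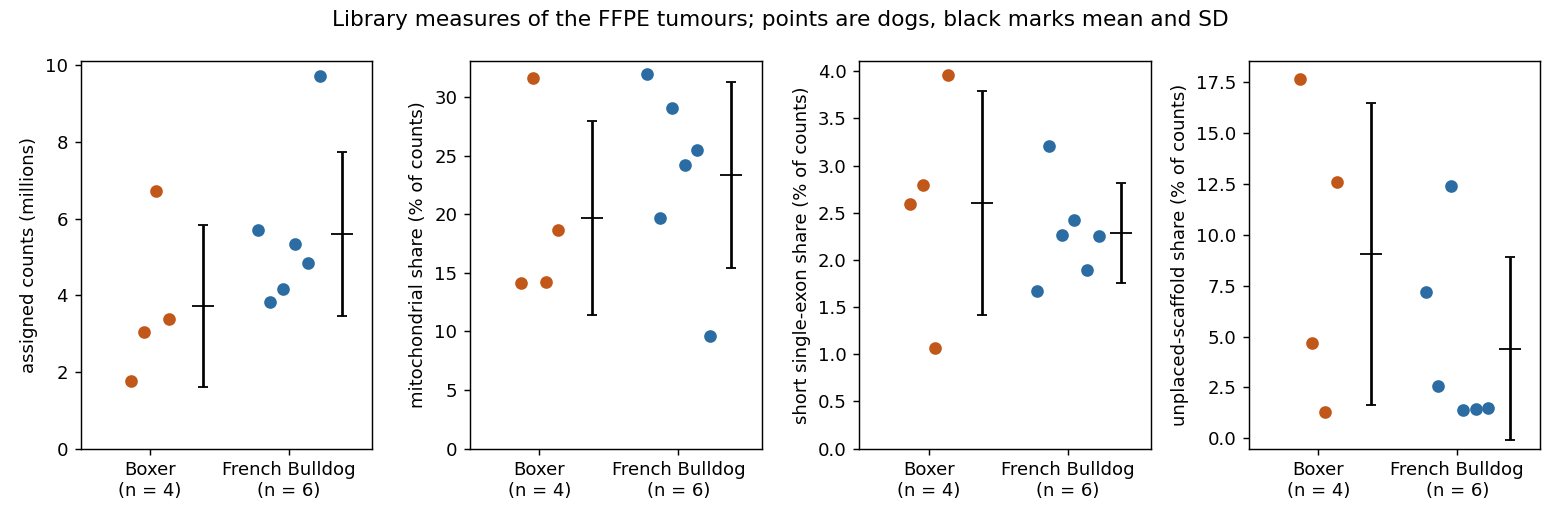
Assigned counts and shares of counts in percent for the FFPE tumours of Boxers (orange, n = 4) and French Bulldogs (blue, n = 6). Points are dogs, and black marks are the mean and SD. The breeds overlap in every panel, and Boxer 43917 has the lowest total and the highest unplaced-scaffold share.

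Principal components of log2 CPM placed dogs of both breeds side by side. The first 3 components took 32.1%, 19.4% and 15.3% of the variance. The first had Boxer 50416 at one end and French Bulldog 44331 at the other (exact permutation between breeds, p = 0.929). The breeds had nearly equal means on the second (p = 1 by exact permutation). On the third Boxers averaged -25.8 ± 37.3 (SD, n = 4) and French Bulldogs 17.2 ± 33.8 (SD, n = 6; exact permutation p = 0.0905, adjusted over 4 components 0.362). Boxers 43917, 50416 and 60792 lay between -46.0 and -41.8 there, and Boxer 60461 at 30.1 lay among the French Bulldogs. Across genes, the mean Pearson r between libraries was 0.80 over 6 Boxer pairs, 0.83 over 24 mixed pairs and 0.83 over 15 French Bulldog pairs.

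The distance of each tumour from healthy brain was read with genes that differed between frozen tumour and frozen brain. Of the genes tested between the FFPE tumours, 1306 were higher and 766 lower in 2 frozen tumours than in the 6 frozen control brains (edgeR adjusted p under 0.05). These tumours, both graded III, were of a Border Terrier and a Pomerian (spelled as in the labels), neither of them among the 10 dogs. Of these 6 brains 4 were of a Hovawart, a Berner sennenhund, a Bolonka Swetna and a mongrel. The other 2 were of French Bulldogs 60460 and 60462, which are also among the 9 FFPE controls. The score was the median log2 difference from FFPE control brain over the first set minus that over the second. It was 1.99, 3.79, 1.55 and 1.91 in Boxers 43917, 50416, 60461 and 60792, against 0.18, 3.66, 2.18, 2.71, 1.79 and 3.55 in French Bulldogs 44331, 51234, 60177, 60636, 60679 and 60749. FFPE control brains ran from -0.68 to 1.20, with French Bulldog 60462 at the top and Boxer 61478 next at 1.11. The tumour of French Bulldog 44331 lay within the control range, against its label, and the other 9 tumours lay above it. Means were 2.31 ± 1.01 in Boxers and 2.35 ± 1.29 in French Bulldogs, a difference of -0.04 (two-sided exact permutation, p = 0.957). Without French Bulldog 44331 the count of edgeR calls between the breeds was still 0, and 301 genes had an unadjusted p under 0.05.

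**Figure D3:**
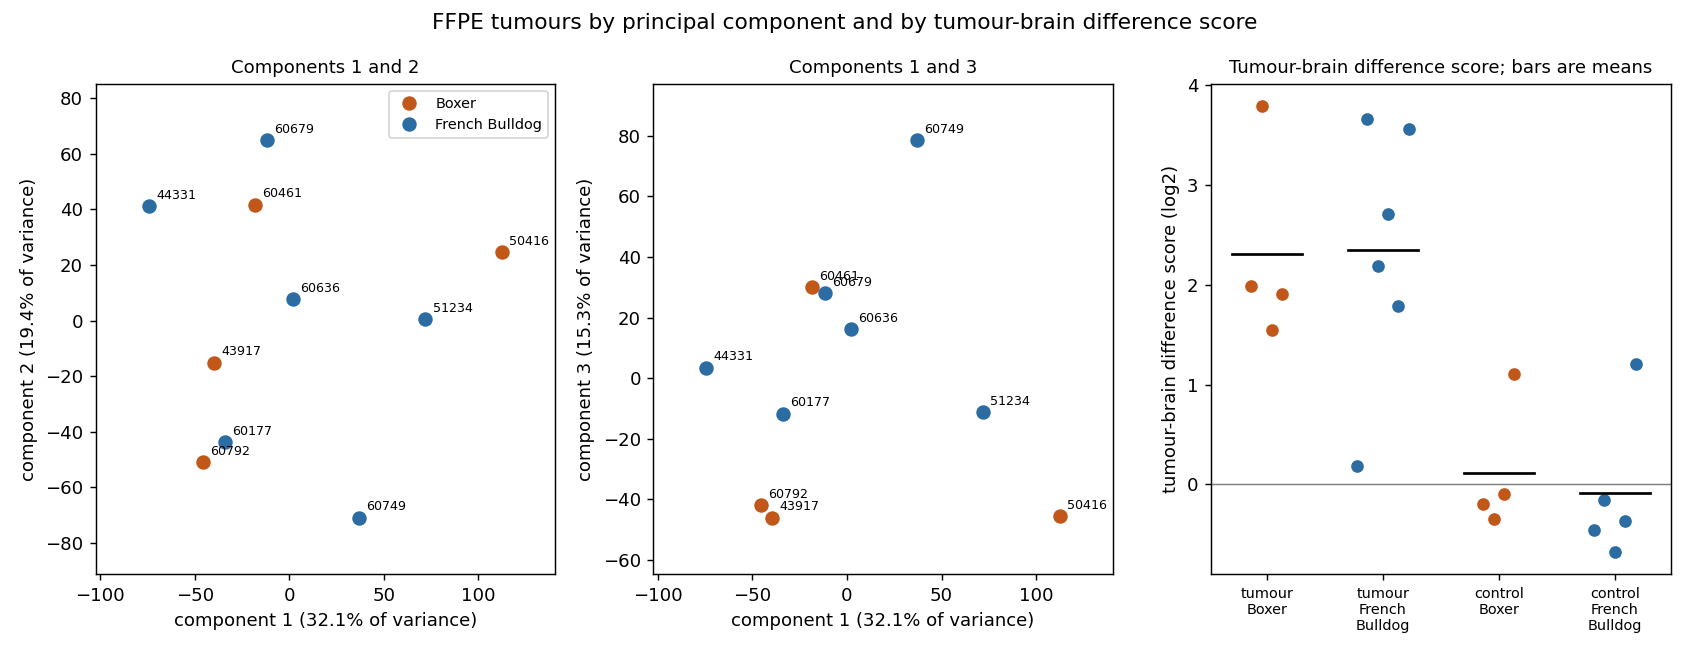
Left and middle, FFPE tumours of Boxers (orange) and French Bulldogs (blue) on components 1 to 3 of log2 CPM, labelled by dog. Right, tumour-brain difference score on a log2 scale for tumours and control brains, with group means as bars; French Bulldog 44331, at 0.18, lies among the control brains.

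Whole chromosomes were then compared, since a gain or loss in the tumour cells would move many neighbouring genes together. Copy number itself was not measured. A chromosome's shift was the median log2 CPM deviation of its genes after centring on the library median. Between the breeds 0 of 39 chromosomes passed by exact permutation, 0 had an unadjusted p under 0.05, and the smallest adjusted p was 0.957. The largest difference was on chromosome 34, where the median shift averaged 0.13 ± 0.34 in Boxers and -0.11 ± 0.11 in French Bulldogs, a difference of 0.24 (exact permutation p = 0.0952). It rested on Boxer 50416, with a shift of 0.62, and was 0.06 without that dog. Chromosomes 13, 11 and 1 followed with differences of 0.19, 0.18 and -0.17. Without Boxer 50416 the differences for chromosomes 11 and 1 were -0.03 and 0.03. Without French Bulldog 44331 the difference for chromosome 13 was 0.09.

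Each tumour was also set against the 9 FFPE control brains. Over genes of 2 or more exons, 122 of 390 tumour by chromosome shifts (31.3%) lay outside the range of the control brains, 57 above (14.6%) and 65 below (16.7%). Each chromosome's limits are set by 2 of the 9 control brains, so another control brain could also lie outside on some chromosomes. By dog the number of chromosomes outside was 9, 20, 6 and 19 in Boxers 43917, 50416, 60461 and 60792, against 5, 11, 19, 6, 7 and 20 in French Bulldogs 44331, 51234, 60177, 60636, 60679 and 60749. The means were 13.5 ± 7.05 in Boxers and 11.3 ± 6.65 in French Bulldogs (two-sided exact permutation, p = 0.700). Both breeds held tumours with few and with many chromosomes outside the range. Control brain 60462 of a French Bulldog was the most variable control, and without it 171 shifts lay outside the range.

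Chromosome 13 stood high in tumours of both breeds. Its shift was 0.45, 0.91, 0.47 and 0.74 in the 4 Boxers, against -0.12, 0.64, 0.42, 0.70, 0.17 and 1.05 in the 6 French Bulldogs. All 4 Boxers and 3 of the 6 French Bulldogs lay above every control brain. The highest control was Boxer 61478 at 0.44, with the other 8 at 0.07 or less, so Boxers 43917 and 60461 and French Bulldog 60177 lay close to that limit. With a prior count of 0.5 in place of 2, 2 Boxers and 3 French Bulldogs lay above, and without control Boxer 61478, 4 and 5 did. Boxers averaged 0.64 ± 0.22 and French Bulldogs 0.48 ± 0.41 (SD, n = 4 and 6). Control Boxer 61478 also had a tumour-brain score of 1.11, next to the highest among the controls.

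Chromosome 35 also stood high in tumours of both breeds, with shifts of 0.40, 0.59, 0.28 and 0.43 in Boxers, against -0.08, 1.10, -0.12, 0.32, 0.40 and 0.76 in French Bulldogs. Above the highest control brain, at 0.30, lay 3 of 4 Boxers and 4 of 6 French Bulldogs. On chromosome 34, 3 Boxers (0.22, 0.53 and 0.17) and 1 French Bulldog (51234, at 0.18) lay above the highest control at 0.15. French Bulldog 44331 had no shift beyond 0.14 in size on any chromosome.

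Chromosomes 14 and 22 both lay below every control brain in 4 tumours, 2 of each breed. On chromosome 14 Boxers 43917 and 60792 stood at -0.35 and -0.32, and French Bulldogs 60177 and 60749 at -0.42 and -0.71, below a lowest control of -0.25. On chromosome 22 the same Boxers stood at -0.35 and -0.83 and the same French Bulldogs at -0.71 and -0.47, below a lowest control of -0.25. These 4 tumours also had the 4 lowest values on component 2 (-15.1, -51.1, -43.7 and -71.0). Boxer 50416 went the other way on both chromosomes, with 0.80 and 0.43.

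Boxer 50416 carried the widest set of shifts of its breed. Chromosome 1 stood at -0.79, where the other 9 tumours ran from -0.19 to 0.07, and 532 of its 752 genes (70.7%) lay below 0, in a library centred on its median over all genes. The medians were -0.91 from 80 to 100 Mb and -0.997 from 100 to 120 Mb, and lay between -0.46 and -0.15 over the 4 segments of 20 Mb from 0 to 80 Mb, so the far part of the chromosome was the lower one. Chromosome 11 stood at 0.83 in the same tumour, against -0.07 to 0.19 in the other 9, and chromosome 33 at 0.65. In French Bulldog 60177 chromosome 12 stood at -0.63, against -0.12 to 0.05 in the other 9 tumours, with 270 of 372 genes (72.6%) below 0. In French Bulldog 51234 chromosome 35 stood at 1.10, the highest shift among the 10 FFPE tumours.

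**Figure D4:**
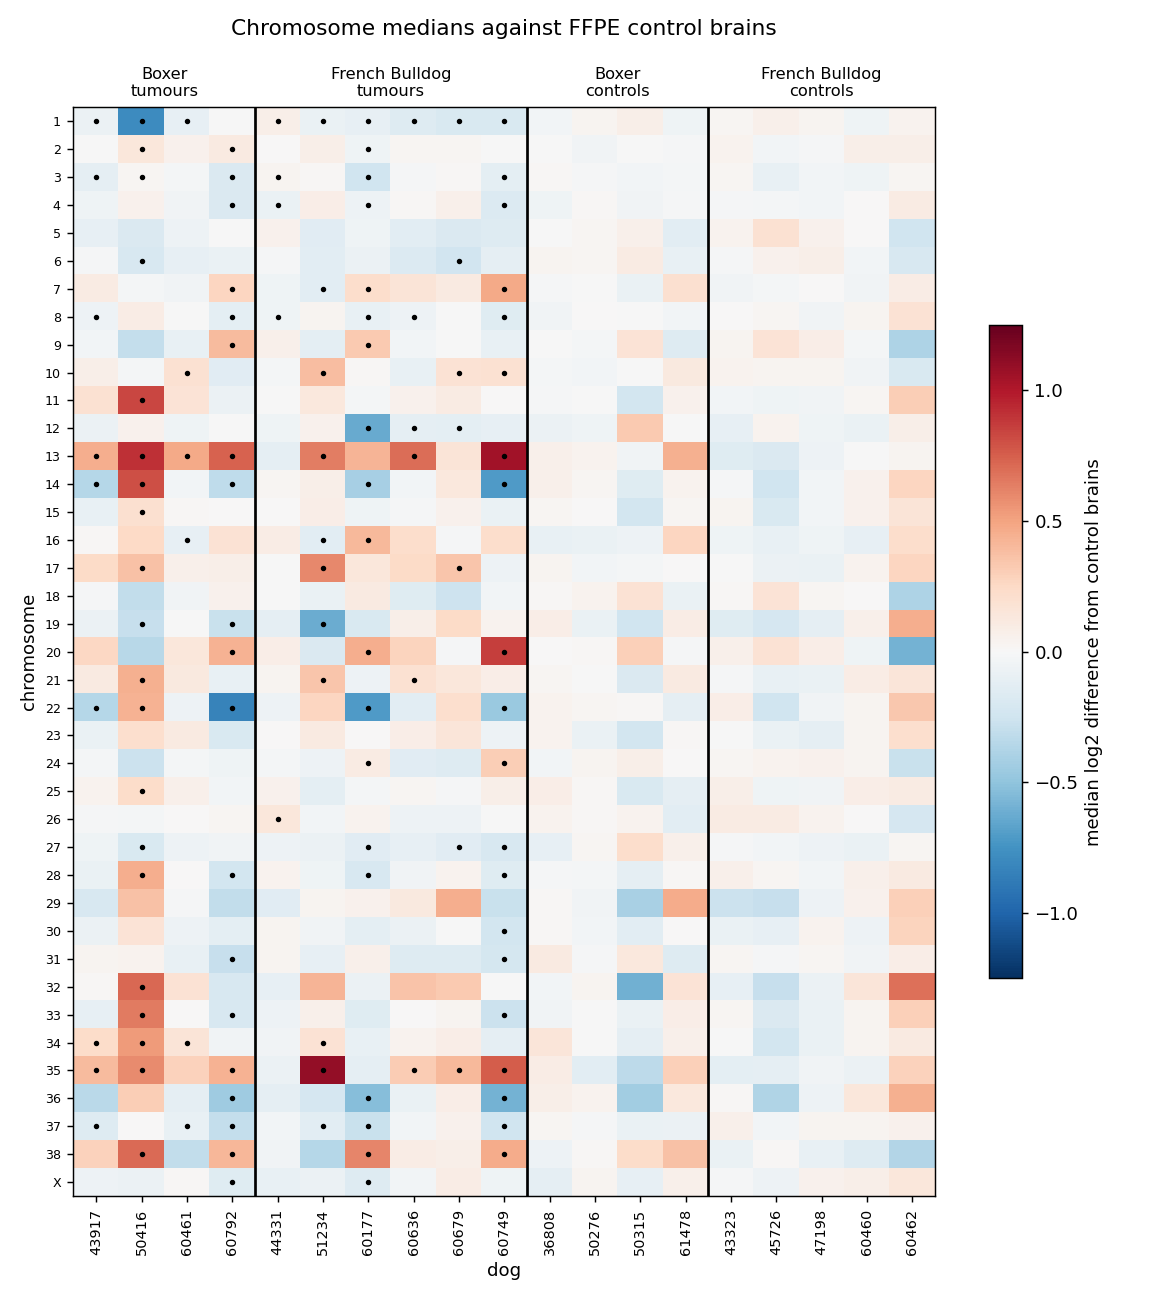
Median log2 difference from FFPE control brains for 39 chromosomes (rows) in Boxer tumours, French Bulldog tumours and the control brains of each breed (columns, labelled by dog). Red is higher and blue lower; a dot marks a tumour outside the range of the 9 control brains. Chromosome 13 is red in most tumours of both breeds, and chromosome 1 of Boxer 50416 (-0.79) and chromosome 12 of French Bulldog 60177 (-0.63) stand alone.

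Frozen tissue of 4 of these dogs gave a second reading of the shifts. Across 39 chromosomes the FFPE and frozen shifts had a Pearson r of 0.82 in Boxer 60461, and of 0.26, 0.16 and 0.95 in French Bulldogs 60636, 60679 and 60749. Each set of points shares 1 dog and the control brains of its preservation. French Bulldog 60749 showed nearly equal values in both, with chromosome 13 at 1.05 in FFPE and 1.07 in frozen tissue, chromosome 14 at -0.71 and -0.89, chromosome 20 at 0.87 and 0.69, and chromosome 35 at 0.76 and 0.82. Boxer 60461 had larger values when frozen, with chromosome 13 at 0.47 in FFPE and 1.11 in frozen tissue and chromosome 22 at -0.06 and -0.57.

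French Bulldog 60636 did not repeat its FFPE shifts, with chromosome 13 at 0.70 in FFPE and 0.03 in frozen tissue. Its FFPE profile correlated more with the frozen profiles of Boxer 60461 (0.80) and French Bulldog 60749 (0.68) than with its own frozen library (0.26). French Bulldog 60679 had 0.17 and 0.10 on chromosome 13, and its FFPE profile also had a higher r with frozen Boxer 60461 (0.48) than with its own frozen library (0.16). The sources used here do not say whether the block and the frozen piece of a dog came from the same part of the tumour, and whether each library came from the dog on its label was not tested. Without French Bulldog 60636 the edgeR calls between the breeds again numbered 0 and unadjusted p was under 0.05 in 171 genes; without French Bulldog 60679 these numbers were 0 and 222.

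**Figure D5:**
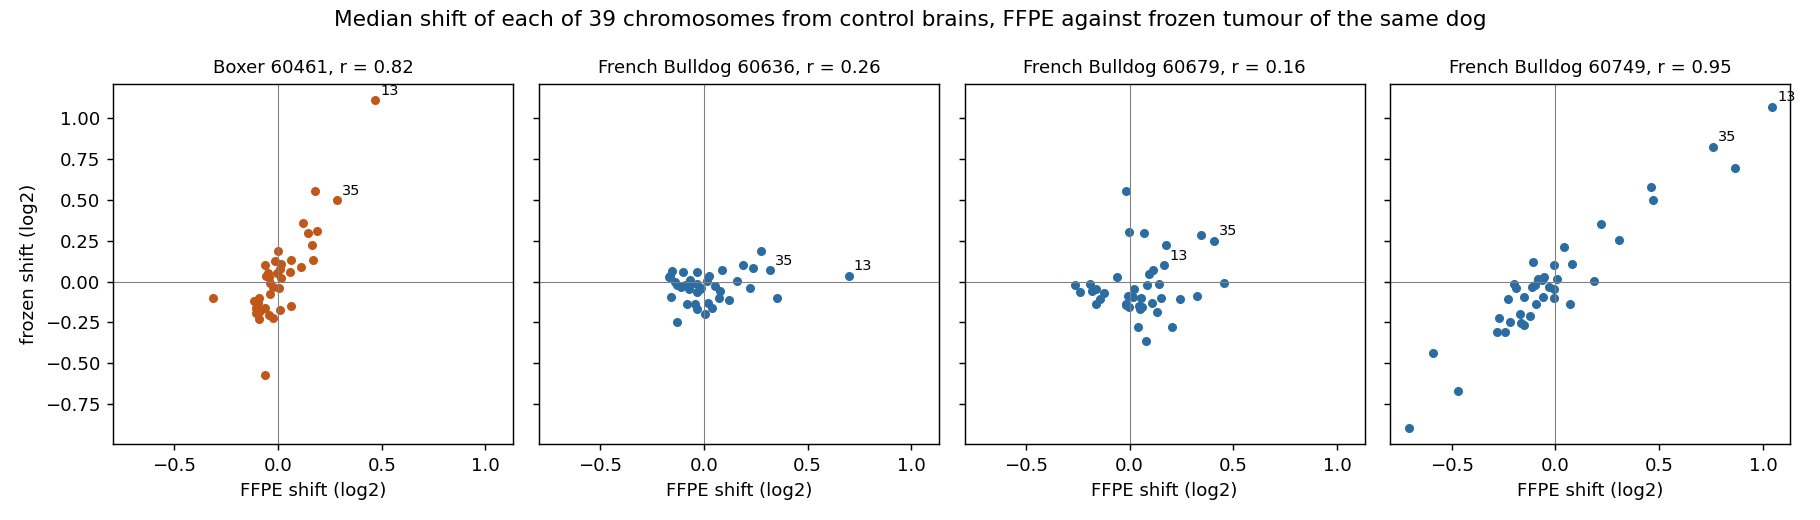
Shift of each of 39 chromosomes from control brains on a log2 scale, FFPE tumour (horizontal) against frozen tumour of the same dog (vertical), for Boxer 60461 (orange) and French Bulldogs 60636, 60679 and 60749 (blue). Chromosomes 13 and 35 are labelled, and points follow a line in Boxer 60461 and French Bulldog 60749 and less so in the other dogs.

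The gene-level result was read again in more closely matched dogs. Among grade III tumours alone, 4 of each breed, edgeR gave 0 calls and 329 genes under an unadjusted p of 0.05. Among the 4 Boxers and 5 French Bulldogs with an age on any record there were 0 calls with or without age as a covariate, beside 340 and 210 genes under that unadjusted threshold. With the ages of the FFPE records alone, which leave out Boxer 60461, there were again 0 calls, beside 854 and 577 genes. In dogs without a frozen library, 3 of each breed, the numbers were 0 and 235. Thinning every library to 1752162 counts gave 0 and 223. The low-count filter was run again in each of these fits, so the number of genes tested can differ between them.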

How the data were processed

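RNA was extracted with a column kit, and forward-stranded libraries with molecular identifiers of 12 nt were sequenced from both ends, per the labels' protocols. The sources used here do not say if duplicates were merged by identifier. The authors deposited raw fragment counts for each gene, made with featureCounts 1.6.0 (strand option 1, mapping quality of at least 10, Ensembl release 100 models of CanFam3.1), per the file headers. The submitters' processing notes also name fastp and STAR. The header shows no option to count a fragment for several genes, so values of overlapping genes and near-identical copies are uncertain. The same file gives each gene's exonic length in bp, with no other unit, per the file headers. Of 30951 identifiers, 0 were paired with a name by the RefSeq table at hand (UU_Cfam_GSD_1.0), so the planned marker lists were not used, and no sequence was printed.

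The main test was that of edgeR 4.0.16 under R 4.3.3 (low-count filter filterByExpr, scaling by TMM, robust quasi-likelihood, breed as the only term, Boxer over French Bulldog, threshold 0.05 after Benjamini-Hochberg adjustment over all genes tested). The SE is the absolute log2 fold change over the square root of F. DESeq2 1.42.0 and limma 3.58.1 were alternatives. CPM were scaled within each tissue and preservation, and log2 values used a prior count of 2. Control brains, the interaction, library measures (with exact permutation), chromosome shifts and the tumour-brain score were computed as described beside them. Scripts were tested on simulated counts. The planned rule named all genes if 30 or fewer passed; since 0 did, 4 identifiers were taken by unadjusted p. The groups, lists, segments and tests were chosen with earlier results of these data known. Nothing says whether libraries share a batch, and p-values measure the spread between these dogs. Counts may hold amplified copies, so count limits cover counting error only; the floor is 3 counts per library.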

Additional observations from a re-analysis of the deposited data

Results flagged for a closer look

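Of 108 groups of 4 or 6 tumour libraries examined for a library far from the rest, 10 had one by Dixon's 95% limit. Chance flags about 1 in 20 groups, a rate that does not hold for counts near 0. Boxer 50416 stood apart within its breed on chromosome 1 at -0.79 (next -0.10), chromosome 24 at -0.265 (next -0.06) and chromosome 27 at -0.187 (next -0.06), on the log2 scale. French Bulldog 60177 stood apart within its breed on chromosome 12 at -0.63, with the next at -0.12. French Bulldog 60749 had the largest total, 9714479 counts against 5704466 in the next, and also 31.005 CPM of ENSCAFG00000013929, with the next at 14.2 CPM. French Bulldog 60636 had 84.6 CPM of ENSCAFG00000037735, with the next at 48.3 CPM. For the 3-exon gene of chromosome 18 at 48413187 to 48416977, Boxer 60792 had 6 counts where the other Boxers had 0, and French Bulldog 60749 had 49 counts where the next French Bulldog had 13. For the chromosome 32 gene called by DESeq2, French Bulldog 44331 had 1 count where the others of its breed had 0.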

How the results depend on the processing

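No paired analysis was possible because no dog was in both breeds' groups. Between tumours edgeR called 0 genes under every alternative run, and DESeq2 called 1. Genes at an unadjusted p under 0.05 numbered 283 of 13873 in the main fit (2.04%) and 756 of 25958 by DESeq2 (2.91%). There were 1357 without a filter, where more genes were tested, and 426 by limma voom. In dogs with an age on the FFPE record there were 854 with age as a covariate and 577 without it. These were 340 and 210 when Boxer 60461 entered with the age from its frozen record. With the short-feature share as a covariate there were 165. With 1 dog left out they numbered 171 (without French Bulldog 60636) to 629 (without Boxer 60461). Fits with another filter or fewer dogs can test other sets of genes, so these counts are not shares of 1 set. In control brain edgeR called 2 genes without a filter, DESeq2 called 4, and leaving out 1 dog gave 0 to 1. The interaction stayed at 0 to 0 with 1 dog left out, with 222 to 442 at an unadjusted p under 0.05, and library measures and chromosome shifts also stayed at 0 to 0 calls.

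The tumour-brain score difference was 0.153 among grade III tumours, the reverse of -0.036, and ran from -0.530 to 0.226 with 1 dog left out. The difference in the share of the top 10 genes was -0.937 percentage points among grade III tumours and -2.17 to 4.59 with 1 dog left out. Other differences that changed sign with 1 dog left out ran from -2.93 to 0.376 points for the first 2700 bp of the mitochondrial genome, -0.134 to 0.831 for short single-exon features and -0.314 to 0.0128 for chromosome X, and from -0.0332 to 0.290 for the chromosome 11 shift and -0.245 to 0.0316 for chromosome 1. The cause was not tested. The 4 named genes kept their direction under every alternative run, but they were picked by p in these same libraries, which favours that outcome. The short-feature median of 0.69 also kept its direction. Its size varied, from 0.51 to 1.08 with 1 dog left out, and was 0.94 among grade III tumours. In dogs with an age on the FFPE record it was 0.83 with age as a covariate and 0.95 without it. With ages from any record these were 0.31 and 0.54. It was 0.39 with limma voom, 0.36 without Boxer 50416 and French Bulldog 60749, and 0.29 with the short-feature share as a covariate. That share is made of the same features, so the last of these fits is not a separate check. Chosen after seeing the data were the control-brain range settings, chromosome shifts in genes of 2 or more exons, ages from any record, the fit over both tissues, the fit without Boxer 50416 and French Bulldog 60749, and DESeq2 with 1 dog left out. With a median SE of 0.46, 850 genes differed by 1 or more on the log2 scale and 0 passed, so differences of that size were not resolved.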
